A study of Mus musculus with 6 samples.

Results

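The 9 genes described here encode nuclear-made factors that copy and transcribe the mitochondrial genome, and transcription factors known to drive some of them. They were taken from the deposited table by name (Polrmt, Tfam, Tfb2m, Tfb1m, Polg, Polg2, Twnk, Nrf1 and Gabpa), and all 9 were found among 56748 genes. RNA was sequenced from whole mouse hearts taken on postnatal day 1. There were 3 libraries from hearts of the genotype FF, labelled Flox and taken here as controls with floxed Kdm5b alleles, which the labels do not spell out, and 3 from hearts of the genotype kdm5b Cko, a cardiac-specific knockout of Kdm5b, called cKO below. The sources used here give neither the promoter that drives the deletion nor whether each library came from its own animal, so the tests measure the spread between these libraries, which may be technical. The comparison asked whether these genes differ between FF and cKO hearts, beside the share of RNA that the mitochondrial genome itself contributes.

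Mitochondrial DNA is transcribed by the polymerase Polrmt, which needs the DNA-bending and packaging protein Tfam and the melting factor Tfb2m to start. It is copied by the polymerase Polg with its accessory subunit Polg2 behind the helicase Twnk. Nuclear respiratory factor 1 (Nrf1) and Gabpa, the DNA-binding ETS subunit of GABP, are transcription factors known to bind the promoters of many nuclear genes for mitochondrial proteins. In the heart this machinery is known to expand around birth, when heart muscle turns to oxidative metabolism.

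In brief, values of Twnk, Polrmt and Tfb2m in all 3 cKO libraries lay above all FF values, where 13.5% of all genes tested did. The mitochondrial share of reads was lower in every cKO library. In FF replicate 3 the mitochondrial message mt-Co1 was at 141% of FF replicates 1 and 2, and the share without it was not computed. With 6 libraries none of the 9 passed the threshold over all genes. Twnk passed it without FF replicate 3, where 12.0% of all genes tested did. The log2 difference of Tfb2m, 0.48 with 6 libraries, was 0.23 without FF replicate 3. Tfam and Gabpa had their lowest value in FF replicate 3 and changed sign without it, and the groups overlapped for Tfb1m, Polg, Polg2 and Nrf1.

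The libraries held 15658893 to 20339926 reads, given back by the FPKM values (fragments per kilobase of gene length scaled by library size). Kdm5b itself was at 3.19, 3.25 and 3.92 FPKM in FF replicates 1 to 3 and at 2.80, 3.03 and 2.75 FPKM in cKO replicates 1 to 3, lower in every cKO library but short of the threshold (log2 difference -0.20, limma adjusted p = 0.447, and -0.13 with 0.391 without FF replicate 3). FF replicate 3 stood apart. It held thymocyte transcripts, with 13 thymocyte markers summing to 345 FPKM against 1.38 to 2.33 FPKM in the other libraries, where 3 to 5 of the 13 were at 0. Its level against FF replicates 1 and 2 also followed base composition, with a median log2 difference of -0.65 among tested genes at or under the lower quartile of GC content (44.8%) and 0.41 among those at or over the upper quartile (54.4%). Its sums of endothelial, fibroblast, macrophage, erythroid and atrial markers were the highest of the 6 libraries. The atrial sum was 137, 599 and 1735 FPKM in FF replicates 1 to 3. It was 1174, 549 and 1525 FPKM in cKO replicates 1 to 3, so FF replicate 1 was the lowest. Markers of heart muscle cells (9 genes) summed to between 12990 and 15841 FPKM in all libraries, with overlapping groups. Single markers moved both ways, which the sum does not show. With 6 libraries, cKO values lay above all FF values for 3 of the 9 and below for 2. Over all genes tested this held for 13.5% and 14.5%. In whole hearts, fewer cells of a type and less RNA per cell cannot be told apart. Results are therefore given with and without FF replicate 3.

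Promoters of the 5 members whose values set the groups or FF replicate 3 apart are shown first, to show which of them carry letters typical of Nrf1 and ETS factor sites. Sequences are those of RefSeq on GRCm38.p6 and run from 250 bases before to 50 bases after the start. They lie at chr19:45006308-45006607, plus strand (Twnk, the downstream of its listed starts), chr10:79746532-79746831, minus strand (Polrmt), chr1:179546227-179546526, minus strand (Tfb2m), chr10:71237995-71238294, minus strand (Tfam) and chr16:84834874-84835173, plus strand (Gabpa). Capitals mark the letters GCATGCG, a form of the core of the Nrf1 site, or CCGGAAG, a form of the core of the ETS site, on either strand. Only these exact letters were searched for, so other forms of either site are neither marked nor counted.
Twnk: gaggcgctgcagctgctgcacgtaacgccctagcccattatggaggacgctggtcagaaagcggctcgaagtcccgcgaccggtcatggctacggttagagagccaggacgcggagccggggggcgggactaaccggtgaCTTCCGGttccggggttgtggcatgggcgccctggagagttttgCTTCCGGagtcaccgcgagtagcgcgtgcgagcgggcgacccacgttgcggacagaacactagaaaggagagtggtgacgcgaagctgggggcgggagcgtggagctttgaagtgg
Polrmt: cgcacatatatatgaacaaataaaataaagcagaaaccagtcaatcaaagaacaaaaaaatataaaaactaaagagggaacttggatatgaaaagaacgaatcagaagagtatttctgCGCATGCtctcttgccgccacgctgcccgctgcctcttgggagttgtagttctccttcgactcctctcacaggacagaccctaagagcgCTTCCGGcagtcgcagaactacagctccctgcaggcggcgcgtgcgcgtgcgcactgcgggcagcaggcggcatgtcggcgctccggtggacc
Tfb2m: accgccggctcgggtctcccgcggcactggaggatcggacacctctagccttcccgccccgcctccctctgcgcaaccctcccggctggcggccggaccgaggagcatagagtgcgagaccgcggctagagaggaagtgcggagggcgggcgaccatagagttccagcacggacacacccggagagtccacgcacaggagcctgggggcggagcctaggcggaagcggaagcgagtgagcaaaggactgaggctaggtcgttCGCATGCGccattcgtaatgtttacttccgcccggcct
Tfam: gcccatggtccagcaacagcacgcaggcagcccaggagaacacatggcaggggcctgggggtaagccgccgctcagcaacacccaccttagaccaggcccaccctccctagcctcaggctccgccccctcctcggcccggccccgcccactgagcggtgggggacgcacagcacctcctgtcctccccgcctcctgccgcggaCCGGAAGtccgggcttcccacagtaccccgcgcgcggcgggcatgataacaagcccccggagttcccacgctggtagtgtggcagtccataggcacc
Gabpa: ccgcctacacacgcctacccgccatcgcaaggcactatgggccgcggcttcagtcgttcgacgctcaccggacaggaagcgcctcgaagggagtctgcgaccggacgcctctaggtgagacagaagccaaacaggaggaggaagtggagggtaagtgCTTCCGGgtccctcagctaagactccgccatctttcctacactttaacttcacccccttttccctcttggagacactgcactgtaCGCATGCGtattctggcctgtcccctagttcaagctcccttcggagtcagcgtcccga
The Nrf1-type letters were found in Polrmt, where the match began 132 bases before the start, in Tfb2m, 12 bases after it, and in Gabpa, 8 bases before it. In Tfb2m and Gabpa the match is a palindromic stretch read on both strands. ETS-type letters were found in Twnk, 110 and 66 bases before the downstream of its listed starts. They were also found in Polrmt (43 bases), Tfam (47 bases), Gabpa (93 bases), Polg (38 bases) and Polg2 (29 bases). The promoters of Tfb1m and Nrf1, and that of the upstream start listed for Twnk, held neither of the exact letters searched for. In all, 3 of 9 members held the Nrf1-type letters and 6 of 9 the ETS-type letters, or 3 and 6 of the 11 promoters listed for them (Twnk and Nrf1 have 2 each). Counted per promoter in the same way, of 32851 promoters of the same length, 3.58% held the former and 8.86% the latter, and of the 11653 that belong to tested genes 6.39% and 17.6%. Such a match describes the sequence and does not show binding.

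Levels across genes are per deposited gene length, so their order depends on that length (10742 bases for Polg and 4013 for Twnk). Whether it matches the messages made in these hearts was not tested. By group mean Gabpa was the most abundant of the members and Polg2 the least, although in FF replicate 3 Gabpa was below Tfam, Polg, Polrmt and Tfb2m. In cKO hearts the order of mean FPKM was Gabpa (15.8 ± 1.55), Tfb2m (11.7 ± 0.567), Tfam (9.43 ± 0.631), Twnk (7.51 ± 0.543), Polrmt (6.25 ± 0.691), Polg (4.90 ± 0.0559), Nrf1 (2.54 ± 0.110), Tfb1m (1.64 ± 0.247) and Polg2 (1.29 ± 0.169; SD, n = 3 each). The values of Tfb1m and Polg2 overlapped, and no other neighbours in that order did. In FF hearts the order was Gabpa, Tfam, Tfb2m, Polg, Polrmt, Twnk, Nrf1, Tfb1m and Polg2, and neighbours from Gabpa down to Twnk overlapped. By mean level Twnk ranked 6 of 9 in FF and 4 of 9 in cKO hearts, and 5 of 9 in FF hearts without FF replicate 3. Tfb2m was above its relative Tfb1m in all 6 libraries.

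**Figure D1:**
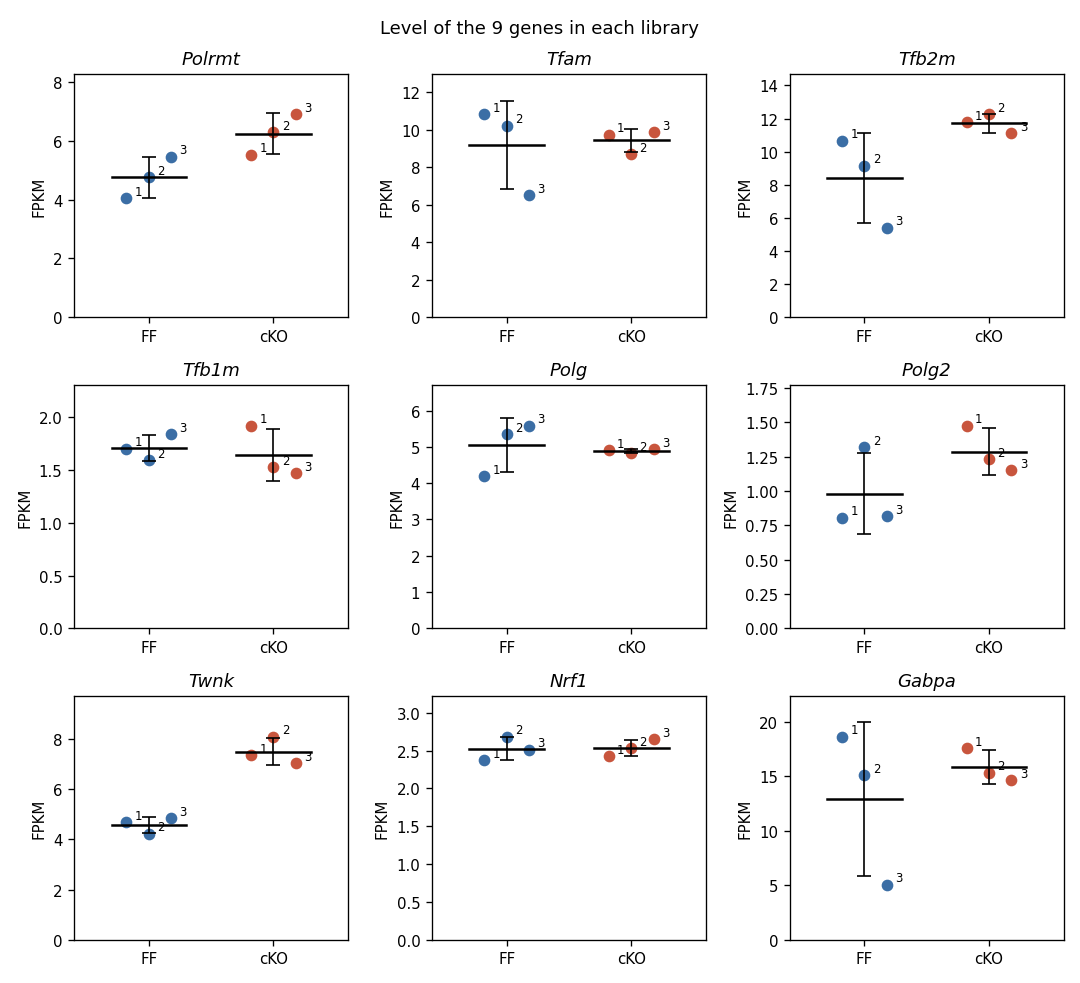
Level of each gene in FPKM (vertical axes, from 0) in the 3 FF (blue) and 3 cKO (red) libraries, numbered by replicate. Bars are the mean and SD. The cKO points of Twnk, between 7.05 and 8.11 FPKM, lie above all FF points, and FF replicate 3 is the lowest point for Tfam, Tfb2m and Gabpa.

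Among the replication factors, Twnk stood apart between the groups. Twnk (ENSMUSG00000025209; chromosome 19, 44994102 to 45001201, plus strand, in the coordinates of the deposited table) encodes the helicase that unwinds mitochondrial DNA ahead of the polymerase. Its level was 4.69, 4.24 and 4.84 FPKM in FF replicates 1 to 3 and 7.37, 8.11 and 7.05 FPKM in cKO replicates 1 to 3. All cKO values lay above all FF values, and FF replicate 3 was close to the other FF libraries. The mean went from 4.59 ± 0.314 to 7.51 ± 0.543 FPKM (SD, n = 3 each), 63.6% higher in cKO. The difference on the log2(FPKM + 1) scale was 0.61 (95% interval 0.33 to 0.88), with an unadjusted p = 0.00134 and a limma p of 0.0748 after Benjamini-Hochberg adjustment over 12678 genes. Without FF replicate 3 Twnk rose by 68.3%, with a log2 difference of 0.64 (95% interval 0.39 to 0.88) and an adjusted p = 0.0207 in limma. With 272 to 643 reads per library, the 95% exact Poisson intervals, which cover counting error only, ran up to 5.36 FPKM in FF and down to 6.50 FPKM in cKO libraries. Over all alternatives the log2 difference of Twnk stayed between 0.56 and 0.70, with adjusted p-values from 0.00118 to 0.315. Beside it, marker sums for heart muscle, endothelial, fibroblast, erythroid and atrial cells overlapped between the groups, while those of 6 macrophage markers were 24.4 to 50.3 FPKM in FF and 18.0 to 24.3 FPKM in cKO. In the fit without FF replicate 3, 2 of 5 tested erythroid markers (Hba-a2 and Alas2) and 1 of 4 atrial markers (Nppa) rose. There 1 of 6 fibroblast markers (Dcn) fell, where 5.73% of all genes rose and 6.26% fell. In that fit all 4 atrial markers were above 0, with a median log2 difference of 1.67, where 48.6% of all genes were above 0. The part of these cells in the result was not tested. The marker genes named here were singled out after their values were seen.

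The polymerase that follows the helicase showed no such separation. Polg (ENSMUSG00000039176, chromosome 7), the catalytic subunit, was at 4.19, 5.35 and 5.59 FPKM in FF and 4.91, 4.83 and 4.94 FPKM in cKO libraries. The cKO values lay inside the FF range, and the log2 difference was -0.03 (95% interval -0.34 to 0.29). Polg2 (ENSMUSG00000020718, chromosome 11) encodes the accessory subunit that holds Polg on DNA. It was at 0.807, 1.32 and 0.815 FPKM in FF and 1.48, 1.23 and 1.15 FPKM in cKO libraries, where FF replicate 2 lay within the cKO values. Its log2 difference was 0.21 (95% interval -0.19 to 0.62), on 60 to 127 reads per library, the fewest of the members. Neither passed, with limma adjusted p = 0.930 and 0.557 with 6 libraries and 0.844 and 0.499 without it.

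Of the transcription machinery, Polrmt and Tfb2m were above FF in every cKO library and Tfam was not. Polrmt (ENSMUSG00000020329, chromosome 10, 79571957 to 79582415, minus strand), the RNA polymerase, was at 4.05, 4.76 and 5.47 FPKM in FF and 5.53, 6.31 and 6.91 FPKM in cKO libraries. The groups did not overlap, but FF replicate 3 and cKO replicate 1 were close, at 5.47 and 5.53 FPKM. The means of 4.76 ± 0.712 and 6.25 ± 0.691 FPKM (SD, n = 3 each) differed by 31.2%, with a log2 difference of 0.33 (95% interval -0.01 to 0.68) and an adjusted p = 0.288 in limma. Without FF replicate 3 the log2 difference was 0.42 (95% interval 0.13 to 0.72), with an adjusted p = 0.0694 in limma, still short of the threshold.

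Tfb2m (ENSMUSG00000026492, chromosome 1, 179355620 to 179373832, minus strand), which opens the promoter for Polrmt, was at 10.7, 9.14 and 5.40 FPKM in FF and 11.8, 12.3 and 11.1 FPKM in cKO libraries. FF replicate 3 was far below the rest, and FF replicate 1 came close to the lowest cKO value. The means were 8.40 ± 2.70 and 11.7 ± 0.567 FPKM (SD, n = 3 each). The log2 difference of 0.48 (95% interval -0.06 to 1.02; limma adjusted p = 0.334) was 0.23 without FF replicate 3 (95% interval -0.02 to 0.47; limma adjusted p = 0.170), over 1.5 times smaller.

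Tfam (ENSMUSG00000003923, chromosome 10, 71061294 to 71074110, minus strand), the factor that packages mitochondrial DNA and starts its transcription, was at 10.8, 10.2 and 6.52 FPKM in FF and 9.73, 8.71 and 9.86 FPKM in cKO libraries. FF replicates 1 and 2 were the highest of the 6 and FF replicate 3 the lowest. The sign of its difference therefore turned on that library, from a log2 difference of 0.06 (95% interval -0.40 to 0.52) to -0.14 (95% interval -0.37 to 0.08) without it, with limma adjusted p = 0.898 and 0.327. Tfb1m (ENSMUSG00000036983, chromosome 17), a relative of Tfb2m known to methylate the mitochondrial small ribosomal RNA, was at 1.70, 1.59 and 1.84 FPKM in FF and 1.92, 1.53 and 1.47 FPKM in cKO libraries. The groups overlapped, and the log2 difference was -0.04 (95% interval -0.37 to 0.29; limma adjusted p = 0.903) with 6 libraries and -0.01 without FF replicate 3.

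**Figure D2:**
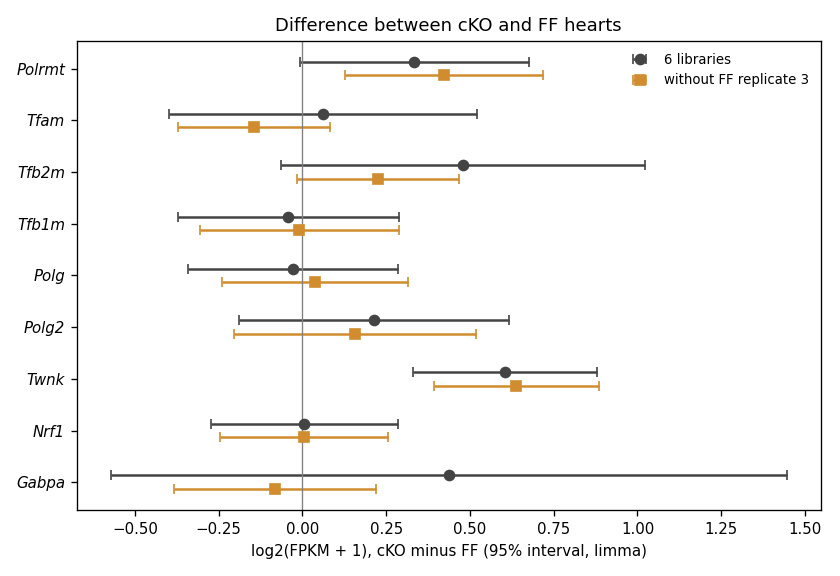
Log2(FPKM + 1) difference, cKO minus FF (horizontal axis), for each gene with its 95% limma interval, for 6 libraries (grey circles) and without FF replicate 3 (orange squares). Twnk has intervals above 0 in both, and the wide interval of Gabpa, -0.57 to 1.45, narrows to -0.38 to 0.22 without FF replicate 3.

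Neither nuclear regulator passed the threshold in either fit. Nrf1 (ENSMUSG00000058440, chromosome 6, 30047987 to 30153457, plus strand) was at 2.38, 2.68 and 2.51 FPKM in FF and 2.43, 2.53 and 2.65 FPKM in cKO libraries, and the groups overlapped. Its log2 difference was 0.01 (95% interval -0.27 to 0.28; limma adjusted p = 0.985). Gabpa (ENSMUSG00000008976, chromosome 16, 84631813 to 84660667, plus strand) was at 18.6, 15.1 and 5.04 FPKM in FF and 17.6, 15.3 and 14.6 FPKM in cKO libraries. Among the other 5 libraries the groups overlapped, and FF replicate 3 was at 29.9% of the mean of FF replicates 1 and 2. Its log2 difference of 0.44 (95% interval -0.57 to 1.45; limma adjusted p = 0.637) was -0.08 without that library (95% interval -0.38 to 0.22; limma adjusted p = 0.677).

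FF replicate 3 was the lowest of the 6 libraries for 3 of 9 members, Tfam, Tfb2m and Gabpa, and the highest for 1, Polg. Over all genes tested these shares were 33.3% and 34.6%. The 3 low members have transcripts of 44.9%, 42.5% and 41.4% GC, while Polrmt, at 124% of FF replicates 1 and 2 in that library, has 60.5%. Tfb1m and Nrf1, of 42.6% and 45.4% GC, were at 111% and 99.3% of FF replicates 1 and 2 there. After removal of the trend with GC content in each library, the log2 differences with 6 libraries were 0.66 for Twnk, which then passed the threshold (limma adjusted p = 0.0305), 0.44 for Polrmt, 0.39 for Tfb2m, 0.34 for Gabpa and 0.01 for Tfam.

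Counted together, 0 of the 9 members passed the threshold with 6 libraries in limma, where 0.166% of all genes tested passed (0.0710% higher and 0.0947% lower in cKO). At an unadjusted p under 0.05 there was 1 of 9, where 17.9% of all genes tested were. In the fit without FF replicate 3, 1 of 9 passed, Twnk, where 12.0% of all genes did. The cKO values lay above all FF values for 3 of 9 members and below for 0 of 9, against 13.5% and 14.5% of all genes (28.0% in either direction). On leaving out FF replicate 3 these counts were 3 higher and 1 lower (Tfam), against 25.0% and 27.0% (52.0% in either direction). The median log2 difference of the members was 0.21 with 6 libraries and 0.04 without FF replicate 3, beside 0.01 and -0.01 over all genes tested.

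The mitochondrial genome gave a smaller share of reads in every cKO library. Its 37 genes took 18.95%, 17.98% and 18.97% of reads in FF replicates 1 to 3 and 15.71%, 13.45% and 12.83% in cKO replicates 1 to 3. The groups did not overlap, and in this share FF replicate 3 was like the other FF libraries. By gene it was not. There mt-Co1 gave 2203852 of 3681181 mitochondrial reads and stood at 141% of FF replicates 1 and 2. The other rRNA and protein-coding genes stood between 25.0% and 92.9%. With 6 libraries, cKO values lay below all FF values for 2 of 15 genes (mt-Co1 and mt-Atp8) and above for 0. Over all genes tested this held for 14.5% and 13.5%. The share without mt-Co1 was not computed. The mean share was 18.6% ± 0.569 in FF and 14.0% ± 1.52 in cKO hearts (SD, n = 3 each), a difference of -4.64 percentage points with an exact two-sided permutation p = 0.1, the smallest that 3 against 3 allows. Without FF replicate 3 the difference was -4.47 percentage points (exact permutation p = 0.2, the smallest that 2 against 3 allows with this two-sided test). Set side by side, the FF libraries joined the high shares with the low Twnk and Polrmt values. Within the cKO group, Twnk was highest in replicate 2 and the share in replicate 1. Tfam had no such order, since FF replicate 3 joined a high share with the lowest Tfam value.

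**Figure D3:**
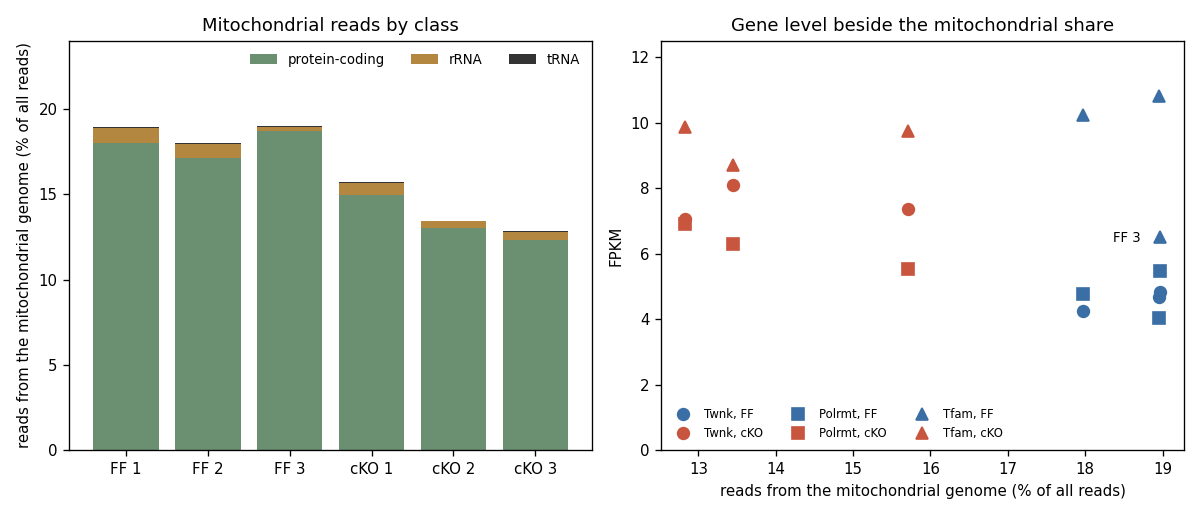
Left, percent of reads from the mitochondrial genome in each library by class, from 0. Right, FPKM of Twnk, Polrmt and Tfam in each library (vertical axis) beside that percent (horizontal axis), FF in blue and cKO in red. The cKO libraries lie between 12.83% and 15.71%, all below the FF libraries.

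The classes of mitochondrial RNA did not follow that share in FF replicate 3. The ribosomal RNAs, the first products of the heavy strand promoter, made up 4.62%, 4.42% and 1.23% of mitochondrial reads in FF replicates 1 to 3 and 4.42%, 2.74% and 3.53% in cKO replicates 1 to 3, so that the groups overlapped (exact two-sided permutation p = 1). That overlap rested on FF replicate 3, and without it both FF values lay above all cKO values, by little at 4.42% in both FF replicate 2 and cKO replicate 1 as rounded (exact two-sided permutation p = 0.2, the smallest possible). The light strand message mt-Nd6 made up 3.17%, 2.83% and 1.97% of mitochondrial protein-coding reads in FF and 2.76%, 1.83% and 2.09% in cKO libraries, with an exact two-sided permutation p = 0.4, and here too the groups did not overlap without FF replicate 3 (exact permutation p = 0.2). The log2 differences of the named transcripts with 6 libraries were -0.74 for mt-Nd6, -0.59 for mt-Co1, -0.48 for mt-Rnr1, -0.38 for mt-Cytb, -0.18 for mt-Rnr2 and -0.14 for mt-Nd1, with limma adjusted p-values between 0.174 and 0.90. On leaving out FF replicate 3, which was lowest for both rRNAs, mt-Rnr1 stood at -0.85 and mt-Rnr2 at -0.84, each over 1.5 times larger and with groups that did not overlap, while mt-Nd6 stood at -0.91, mt-Cytb at -0.50, mt-Co1 at -0.43 and mt-Nd1 at -0.18 (limma adjusted p-values between 0.0508 and 0.784). Of the 15 rRNA and protein-coding genes, 14 of 15 were below 0 and 0 passed with 6 libraries in limma (5 at an unadjusted p under 0.05). In the fit without FF replicate 3, 2 fell, mt-Co2 (-1.60, limma adjusted p = 0.0412) and mt-Atp8 (-2.34, limma adjusted p = 0.0462), where 6.26% of all genes did. Both were named after their values were seen. They were low for mitochondrial messages, with FF means of 1268 and 633 FPKM against 60065 FPKM for mt-Co1. The lowest library held 286 reads of mt-Atp8. No source used here gives the strand setting of the counting, so reads of mt-Nd6 and of the RNA opposite to it cannot be told apart.

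Genes that work beside the members gave a mixed picture, described over a list of 58, of which 53 passed the filter. Of the 20 tested partners in mitochondrial DNA replication, repair and nucleotide supply, 0 passed with 6 libraries in limma and 5 had an unadjusted p under 0.05, where 17.9% of all genes did. Their median log2 difference was 0.07. In the fit without FF replicate 3, 2 rose and 2 fell, where 5.73% and 6.26% of all genes did. Ung, the glycosylase that removes uracil from DNA in nucleus and mitochondria, was at 4.92, 4.76 and 4.61 FPKM in FF and 2.71, 3.05 and 2.70 FPKM in cKO libraries, with a log2 difference of -0.59 (SE 0.11, limma adjusted p = 0.0745) and an adjusted p = 0.0216 without FF replicate 3. Lig3, the ligase that seals mitochondrial DNA, was at 2.64, 2.50 and 2.54 FPKM in FF and 3.75, 3.72 and 4.0 FPKM in cKO libraries, with a log2 difference of 0.44 (SE 0.11, limma adjusted p = 0.125, and 0.0400 without FF replicate 3). Both had groups that did not overlap, in opposite directions. The other genes that passed without FF replicate 3 were Dna2, a nuclease and helicase of nuclear and mitochondrial DNA, at -0.75, and Atad3a, an inner membrane ATPase found near mitochondrial nucleoids, at 0.42 on the log2 scale. Ssbp1, which coats the single strands that Twnk opens, averaged 3.61 ± 1.23 FPKM (FF) and 3.40 ± 0.642 FPKM (cKO; SD, n = 3 each), with groups that overlapped through the 2.19 FPKM of FF replicate 3. Its log2 difference of -0.04 was -0.28 without that library (limma adjusted p = 0.214), and the groups then did not overlap.

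The 25 tested genes of mitochondrial transcription and RNA processing had log2 differences above 0 for 21 of 25, where 50.7% of all genes were above 0, and their median was 0.19. With 6 libraries 0 passed in limma and 5 had an unadjusted p under 0.05, against 17.9% of all genes. On leaving out FF replicate 3 the median was 0.12, 17 of 25 were above 0 (48.6% of all genes), 4 rose and 0 fell, where 5.73% and 6.26% of all genes did. These were Ptcd1, Ptcd2, Fastkd1 and Tbrg4, all known to bind mitochondrial RNA. Fastkd1 was at 4.16, 4.42 and 3.54 FPKM in FF and 6.95, 6.04 and 7.51 FPKM in cKO libraries, with a log2 difference of 0.63 (SE 0.13, limma adjusted p = 0.0888, and 0.0326 without FF replicate 3). Ptcd1 was at 5.17, 4.42 and 6.48 FPKM in FF and 7.93, 10.2 and 9.41 FPKM in cKO libraries, with a log2 difference of 0.68 (SE 0.16, limma adjusted p = 0.110, and 0.0207 without FF replicate 3). The groups did not overlap for either gene. Ptcd2 and Tbrg4 stood at 0.59 and 0.39 on the log2 scale without FF replicate 3. Tefm, the elongation factor of Polrmt, was at 7.38 ± 0.555 and 8.34 ± 0.875 FPKM, and Lrpprc, which stabilises mitochondrial messages, at 15.7 ± 4.86 and 20.4 ± 1.32 FPKM in FF and cKO hearts (SD, n = 3 each), both short of the threshold. The log2 difference of Lrpprc, 0.40 with 6 libraries, was 0.14 without FF replicate 3, where it was at 10.3 FPKM.

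**Figure D4:**
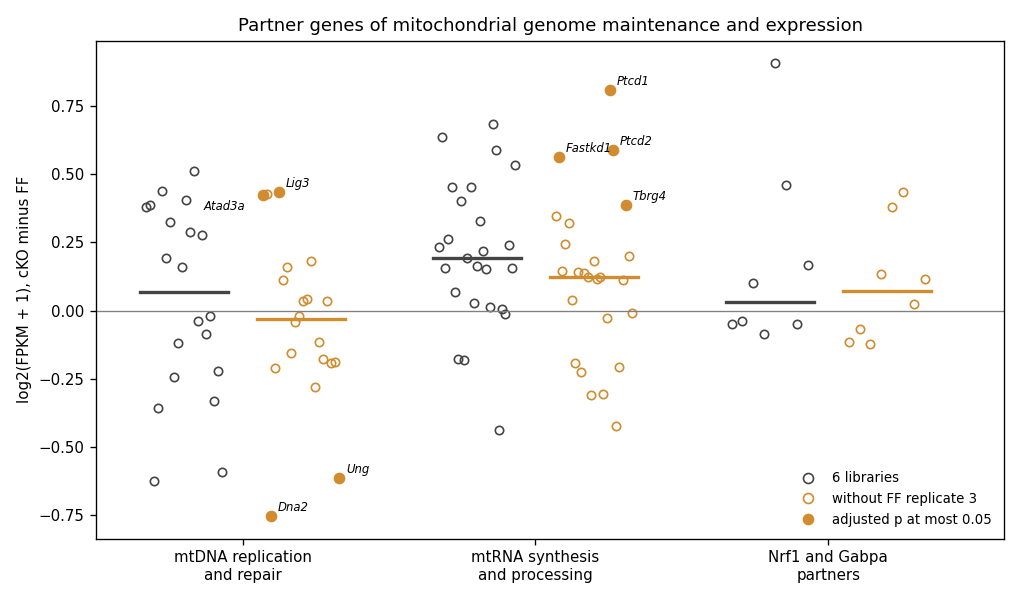
Log2(FPKM + 1) difference, cKO minus FF (vertical axis), of each tested partner gene in 3 lists, for 6 libraries (grey) and without FF replicate 3 (orange). Bars are list medians and filled points passed the threshold. All 8 filled points are orange, 6 above 0 and 2 below.

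Of 8 partners and coactivators of Nrf1 and Gabpa, 0 passed with 6 libraries in limma, where 0.166% of all genes did. At an unadjusted p under 0.05 there was 1 of 8, where 17.9% of all genes were. In the fit without FF replicate 3, 0 passed, where 12.0% of all genes did. Gabpb1, the partner subunit of Gabpa, averaged 4.86 ± 0.261 FPKM (FF) and 4.72 ± 0.447 FPKM (cKO; SD, n = 3 each). The coactivators Ppargc1b and Ppargc1a, 2 of the 8, were above FF in every cKO library, where 13.5% of all genes were. Ppargc1b was at 6.40, 5.80 and 5.70 FPKM in FF and 7.74, 8.55 and 9.51 FPKM in cKO libraries (log2 difference 0.46, SE 0.12, limma adjusted p = 0.137, and 0.0546 without FF replicate 3). Ppargc1a was at 18.2, 17.6 and 5.32 FPKM in FF and 26.4, 24.1 and 20.6 FPKM in cKO libraries, so that its log2 difference of 0.91 (limma adjusted p = 0.333) was 0.38 without FF replicate 3, whose low value it shares with Gabpa.

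Genes that lie over or against the members bear on how the reads can be assigned. Twnk starts 779 bases from Mrpl43, a gene of the mitochondrial ribosome on the other strand, and overlaps it by 780 bases. Mrpl43 was at 7.59, 8.72 and 6.70 FPKM in FF and 8.26, 8.79 and 8.03 FPKM in cKO libraries, with a log2 difference of 0.12 (limma adjusted p = 0.684), against 0.61 for Twnk. Reads in a stretch that both genes cover cannot be told apart without strand. Gabpa starts 700 bases from Atp5j, which encodes a subunit of ATP synthase, and overlaps it by 701 bases. Atp5j was at 129, 120 and 69.5 FPKM in FF and 100, 78.9 and 78.0 FPKM in cKO libraries. Its log2 difference was -0.27 (limma adjusted p = 0.633), and without FF replicate 3 it fell by 0.54 (adjusted p = 0.0496 in limma), where Gabpa stood at -0.08. Tfb2m starts 103 bases from Cnst, which lay between 6.72 and 8.46 FPKM in all libraries with a log2 difference of 0.00. Polg overlaps Fanci by 4034 bases, Tfb1m overlaps Tiam2 by 12089 bases and Polg2 overlaps Milr1 by 542 bases, all on the other strand. No gene of the table overlapped Tfam or Polrmt.

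The tested genes most like Tfam and Polrmt over the 6 libraries were found by the root mean square distance between centred log2(FPKM + 1) values. For Tfam these were Ttc37 (distance 0.0279), Slc18a2 (0.0391) and Ddx42 (0.0414), each lowest in FF replicate 3. Ttc37 was at 1.89, 1.71 and 0.752 FPKM in FF and 1.54, 1.25 and 1.61 FPKM in cKO libraries. For Polrmt they were Ift140 (0.0362), Rnf123 (0.0488) and Oplah (0.0490), each above FF in every cKO library, though Oplah was at 8.94 FPKM in both FF replicate 3 and cKO replicate 1 as rounded.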

How the data were processed

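Total RNA of whole mouse hearts, isolated by miRNeasy micro kit, was made into 6 libraries (3 FF, 3 cKO) with the Ovation Ultralow V2 kit (source: the labels' protocols). Values are FPKM as deposited by the authors, 1 column per library over 56748 genes. Tools named in the submitters' processing notes include TopHat2 2.0.13, featureCounts of Subread and edgeR. Beside mm10 and GRCm39 the notes list GRCh38 without saying what each build was for. Of 52073 gene identifiers shared with GENCODE M21 (GRCm38), 1472 had the same start and end, and 0 of the 9 members. Gene coordinates are printed as deposited, and promoter coordinates are those of GRCm38.p6.

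FPKM times length gave whole multiples of a single step per library (100% of values under 200 reads within 0.1 of a whole number), from which reads were taken. The library size behind that step was not the read total. It was 0.960, 1.021 and 0.986 times the total in FF replicates 1 to 3. In cKO replicates 1 to 3 it was 1.034, 1.020 and 1.067 times the total. Group differences in log2(FPKM + 1) come from limma 3.58.1 (R 4.3.3), fitted with no other term and with a variance trend. P-values were adjusted by Benjamini-Hochberg over the 12678 genes whose mean FPKM reached 1, and the threshold was 0.05. All 9 members passed that filter. Fits without a library kept these genes. The mitochondrial share was tested by exact permutation over libraries. GC content was that of the longest GENCODE M21 transcript, found for 98.4% of tested genes. The fit was tested on simulated data that held no outlying library and no GC trend, so that test does not cover FF replicate 3.

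Members, lists and tests were chosen with earlier results of these data known. Members are given in full. Of each partner list the 2 genes with the smallest p are named. Dna2, Atad3a, Ptcd2, Tbrg4, Ssbp1, Tefm, Lrpprc, Gabpb1, mt-Co2, mt-Atp8 and 4 marker genes were added after their values were seen. Alternatives covered the pseudocount, filter, scaling, variance model, GC content and each library left out.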

Additional observations from a re-analysis of the deposited data

How the results depend on the processing

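With 6 libraries 21 genes passed the threshold. That count was 11 with a pseudocount of 0.1, 0 with no filter (3210 at an unadjusted p under 0.05), 53 at a mean FPKM of at least 5, 59 with quantile normalization, 34 after rescaling on reads outside haemoglobin and mitochondrial genes, 13 with a robust variance prior, 4300 with array weights, 521 with GC correction and 1690 without FF replicate 3 and with that rescaling, a setting chosen after seeing the data. With the replicate number as a block (replicate block) it was 2 and no member passed. Same-numbered libraries correlated at 0.383, -0.238 and 0.239 in their deviations from the group means. FF replicates 1 and 3 correlated best with the cKO library of the same number, and FF replicate 2 with cKO replicate 1. The numbers were not taken as pairs, though deviations within groups of 3 cannot settle this, since they sum to 0. Leaving out 1 library gave 0 to 1520 genes, 0 to 1 members and 0 to 8 partner genes, the highest each time without FF replicate 3. Array weights called 3 of 9 members (Twnk, Polrmt and Tfb2m) and 13 of 53 partner genes, where 4300 of all 12678 genes passed. GC correction called 1 member and 4 partner genes, where 521 of 12678 passed. The rescaling without FF replicate 3 called 1 member and 9 partner genes, where 1690 of 12678 passed. The other alternatives called 0 of either, and at a mean FPKM of at least 5 only 5 members and 28 partner genes were tested.

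Twnk, Polrmt and Tfb2m had a positive difference under every alternative run. Polg2 ranged from 0.0015 with array weights to 0.386 with a pseudocount of 0.1. Other members changed sign, Gabpa among them only where FF replicate 3 was left out. Nrf1 stood at -0.0356 with quantile normalization, -5.1e-05 after rescaling, -0.0305 with array weights, -0.0418 with GC correction and -0.0014 without FF replicate 3 and rescaled. Tfam stood at -0.10 with array weights and -0.15 without FF replicate 3 and rescaled, where Gabpa stood at -0.088 and Polg at 0.0321, and Polg at 0.0229 with GC correction. Leaving out 1 library gave -0.0246 to 0.038 for Nrf1, -0.144 to 0.182 for Tfam, -0.134 to 0.0379 for Polg, -0.118 to 0.0041 for Tfb1m and -0.0824 to 0.767 for Gabpa. The cause was not tested. The mitochondrial share was lower in cKO under the 3 other ways of computing it and with each library left out, where its p cannot fall below the threshold by design. All of these keep mt-Co1, so they cannot show whether the share of the other mitochondrial genes differed. Kdm5b was below 0 and short of the threshold in every alternative that tested it, which the filter at a mean FPKM of at least 5 did not. With 60 to 127 reads, Polg2 has counting intervals that reach up to 28.7% above its value.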
